A study of Homo sapiens with 6 samples.

Results

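The selenium-containing peroxidases and reductases and the genes under the transcription factor NRF2 were examined in human induced pluripotent stem cell (hiPSC) aggregates grown with and without the polymers PEG (polyethylene glycol) and HS (heparin sodium salt). The 10 genes were chosen by name and were the glutathione peroxidases GPX1, GPX3 and GPX4, the thioredoxin reductases TXNRD1 and TXNRD2, the NRF2 gene itself (NFE2L2), and the NRF2 targets NQO1, GCLC, GCLM and SRXN1. All 10 had a row among the 19977 genes counted, and all 10 passed the limit of 10 counts over the 6 libraries that 16505 genes passed. The cells were NCRM-1, a wild-type hiPSC line, seeded as single cells in vertical wheel bioreactors and grown as aggregates for 4 days, with 50% of the medium replaced on the second day. Bulk polyadenylated RNA was sequenced from 3 samples of cells kept in E8, a defined serum-free medium, to which 10 mg/ml PEG and 0.1 µg/ml HS had been added (PEG and HS), and from 3 samples kept in unsupplemented E8 (E8 control). The labels read as a single bioreactor for each medium, so the vessel cannot be told apart from the medium, and every SD and p-value reflects the spread between these samples, which may be technical.

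Glutathione peroxidases use glutathione to reduce hydrogen peroxide and lipid peroxides, and thioredoxin reductases return oxidised thioredoxin to its active form. The peroxidases and reductases named above carry selenium at the active site as the amino acid selenocysteine. The ribosome inserts it at an in-frame UGA codon that would otherwise stop translation, and E8 medium contains selenium. NRF2 is a transcription factor that is held low by KEAP1 and the CUL3 ubiquitin ligase, accumulates when cells meet oxidants or electrophiles, and then drives glutathione synthesis, thioredoxin recycling and quinone detoxification through antioxidant response elements.

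The coding sequence around the selenocysteine codon is shown for the 5 selenoenzymes among the members, because this codon is what ties them to selenium. Sequences are from the GENCODE 44 transcripts, on the coding strand, with the selenocysteine codon in capitals and written as TGA.
GPX1: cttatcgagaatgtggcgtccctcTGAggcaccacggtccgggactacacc
GPX3: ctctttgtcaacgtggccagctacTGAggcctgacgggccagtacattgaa
GPX4: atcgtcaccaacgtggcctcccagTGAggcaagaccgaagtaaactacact
TXNRD1: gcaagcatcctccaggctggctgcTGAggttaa
TXNRD2: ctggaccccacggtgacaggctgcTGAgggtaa
In the 3 peroxidases the codon lies in the first part of the reading frame, at codon 49 of 203 in GPX1, codon 73 of 226 in GPX3 and codon 73 of 197 in GPX4. In both reductases it is the last codon but 1, at codon 648 of 649 in TXNRD1 and codon 523 of 524 in TXNRD2, and the stop codon closes the sequences shown. On GRCh38 the codons are at chromosome 3, 49358132 to 49358134 (GPX1, minus strand), chromosome 5, 151025469 to 151025471 (GPX3, plus strand), chromosome 19, 1105403 to 1105405 (GPX4, plus strand), chromosome 12, 104348413 to 104348415 (TXNRD1, plus strand) and chromosome 22, 19877111 to 19877113 (TXNRD2, minus strand).

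The differences between the media were small for all 10 genes, with estimates from -9.74% to 13.2%. NFE2L2 was 13.2% higher in PEG and HS and GPX4 was 9.74% lower, and these 2 of the 10 genes (20.0%) passed the test. Over all genes tested 25.3% passed, a share close to that of the members. By direction, 1 member was higher against 12.2% of all genes, and 1 was lower against 13.1%. The test was the quasi-likelihood F test of edgeR, with p-values adjusted by Benjamini-Hochberg over all 16505 genes (adjusted p), and a gene was called at an adjusted p under 0.05. The median log2 fold change of the 10 members was 0.026, against 0.0031 over all genes tested, and their median absolute log2 fold change was 0.075, against 0.12. The genes tested include many with fewer counts than any member, whose changes are less precise. In 3 of the 10 genes (30%) the replicates of one medium all lay on one side of the other, and this was so for 39.3% of all genes tested. The depth was 26991279 to 36185138 counts per library, the members had 1455 to 38386 counts each over the 6 libraries, and their replicates had a coefficient of variation of 1.32% to 7.55%.

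**Figure D1:**
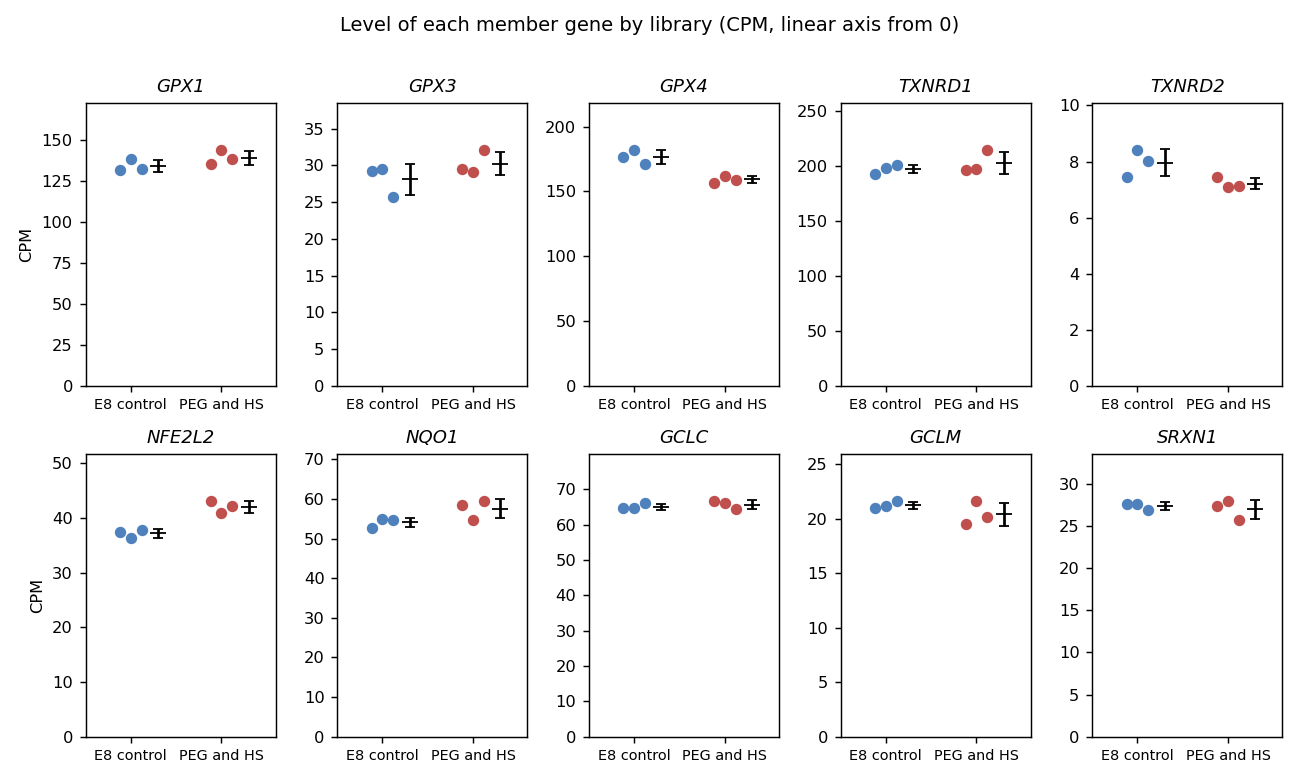
Level of each member gene in CPM (counts scaled to a common library size, vertical axis from 0) in the 3 E8 control libraries (blue) and the 3 PEG and HS libraries (red), with the mean and SD of each medium in black. The points of the media lie close together in every panel, and NFE2L2 (higher in PEG and HS), GPX4 and TXNRD2 (both lower) are the panels without overlap.

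GPX4 (ENSG00000167468, chromosome 19, 1103982 to 1106791 of GRCh38), the peroxidase that reduces lipid peroxides in membranes and guards against ferroptosis, was at 157, 162 and 159 CPM in the PEG and HS replicates and at 176.5, 181.8 and 171.4 CPM in the E8 control replicates. CPM values were scaled by edgeR's TMM factors and are not corrected for gene length. All 3 PEG and HS libraries were below all 3 E8 control libraries, with means of 159 ± 2.78 CPM (SD, n = 3) and 176.6 ± 5.21 CPM (SD, n = 3). The log2 fold change of GPX4, PEG and HS over E8 control and called log2 change from here on, was -0.15 with an SE of 0.030 (edgeR adjusted p = 0.00192), with a 95% interval for the change of -13.7% to -5.63%. GPX4 stayed lower with an adjusted p of at most 0.0145 under each other normalization, filter, test and left-out library, apart from the test against a 1.5-fold change. Its transcripts share no 31-base sequence with other genes.

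GPX1 (ENSG00000233276, chromosome 3, 49357174 to 49358605), the most widely expressed cytosolic glutathione peroxidase, measured 135, 144 and 138 CPM under PEG and HS, against 132, 138 and 133 CPM in the E8 control. The media overlapped, and the difference did not pass the test (log2 change 0.050 with SE 0.032, edgeR adjusted p = 0.289, 95% interval -1.26% to 8.61%). With library-wise trends on GC content and length removed, the log2 fold change of GPX1 was 0.10 and its adjusted p was 0.00821. GPX1 has 40.7% of its 31-base words in common with other genes, chiefly with a readthrough locus that has no row in the count files, and how such reads were counted is not stated.

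GPX3 (ENSG00000211445, chromosome 5, 151020591 to 151028988), the peroxidase secreted into extracellular fluid, measured 29.5, 29.1 and 32.1 CPM under PEG and HS, against 29.2, 29.5 and 25.7 CPM in the E8 control. One library in each medium stood apart, PEG and HS replicate 3 above and E8 control replicate 3 below, and the other libraries of both media lay together. The log2 change was 0.11 with an SE of 0.059 (edgeR adjusted p = 0.205, 95% interval -1.18% to 17.9%), the widest upper bound of any member that was not called.

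TXNRD1 (ENSG00000198431, chromosome 12, 104215779 to 104350307) encodes the cytosolic thioredoxin reductase and was the member with the most counts. It measured 197, 198 and 215 CPM under PEG and HS, against 193, 198 and 201 CPM in the E8 control. The media overlapped, and the higher PEG and HS mean came from replicate 3 (log2 change 0.040 with SE 0.034, edgeR adjusted p = 0.449, and -0.0026 without that library). TXNRD2 (ENSG00000184470, chromosome 22, 19875517 to 19941820), which encodes the mitochondrial enzyme, was the member with the fewest counts and measured 7.44, 7.08 and 7.12 CPM under PEG and HS, against 7.45, 8.40 and 8.01 CPM in the E8 control. The media did not overlap, but E8 control replicate 1 and PEG and HS replicate 1 were almost equal, and the difference did not pass the test (log2 change -0.14 with SE 0.080, edgeR adjusted p = 0.223, 95% interval -19.6% to 2.0%).

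NFE2L2 (ENSG00000116044, chromosome 2, 177218667 to 177392756), the gene of NRF2, measured 43.1, 40.9 and 42.2 CPM under PEG and HS, against 37.4, 36.3 and 37.8 CPM in the E8 control. All 3 PEG and HS libraries were above all 3 E8 control libraries, with means of 42.1 ± 1.08 CPM (SD, n = 3) and 37.2 ± 0.771 CPM (SD, n = 3). The log2 change was 0.18 with an SE of 0.041 (edgeR adjusted p = 0.00454), with a 95% interval for the change of 6.53% to 20.2%. The call held, with an adjusted p of at most 0.0295, under every other setting but the test against a 1.5-fold change. Of the genes annotated over NFE2L2 on the opposite strand, HNRNPA3 and AGPS were counted, and the strand setting of the counting is not stated. HNRNPA3 had a log2 fold change of 0.017 (adjusted p = 0.74) and AGPS of 0.088 (adjusted p = 0.086), both from edgeR. NFE2L2 has 17.5% of its 31-base words in common with other genes, chiefly with an overlapping noncoding locus. NRF2 is controlled mainly through the stability of the protein, which these counts do not measure.

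KEAP1, which binds NRF2 and presents it for degradation, measured 63.1, 64.8 and 66.3 CPM under PEG and HS, against 64.1, 69.3 and 64.5 CPM in the E8 control. The media overlapped (log2 change -0.028 with SE 0.038, edgeR adjusted p = 0.651). None of the 11 genes listed as NRF2 regulators and partners (KEAP1, CUL3 and RBX1 of its ubiquitin ligase, the small MAF partners MAFF, MAFG and MAFK, the competing repressor BACH1, the relative NFE2L1, and BTRC, SYVN1 and DPP3) was called by edgeR, against 25.3% of all genes tested. Of these 11, 2 had an unadjusted p under 0.05, DESeq2 and limma-voom called 0 as well, and the correction for GC content and length called 2. Within each library, where scaling has no part, the ratio of NFE2L2 to KEAP1 counts was 0.682, 0.632 and 0.636 in PEG and HS and 0.584, 0.524 and 0.586 in E8 control. The ratio was higher in every PEG and HS library (log2 difference 0.20, exact two-sided permutation p = 0.1, the smallest that 3 against 3 can give, and 0.133 after adjustment over the 4 ratios computed).

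NQO1 (ENSG00000181019, chromosome 16, 69706996 to 69726668), the quinone reductase most often read as a sign of NRF2 activity, measured 58.5, 54.7 and 59.4 CPM under PEG and HS, against 52.7, 54.8 and 54.6 CPM in the E8 control. PEG and HS replicate 2 lay among the E8 control libraries and the other 2 lay above them. The difference did not pass the test with all libraries (log2 change 0.091 with SE 0.039, edgeR adjusted p = 0.109, 95% interval 0.478% to 12.9%), and did without PEG and HS replicate 2 (log2 fold change 0.12, adjusted p = 0.0371). NQO1, NFE2L2 and GPX4 were the 3 members with an edgeR p under 0.05 before adjustment.

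GCLC and GCLM encode the catalytic and the modifier subunit of glutamate-cysteine ligase, the rate-limiting enzyme of glutathione synthesis. GCLC (ENSG00000001084, chromosome 6, 53497341 to 53616970) measured 66.7, 66.1 and 64.4 CPM under PEG and HS, against 64.7, 64.6 and 66.2 CPM in the E8 control. The media overlapped throughout (log2 change 0.012 with SE 0.033, edgeR adjusted p = 0.838, 95% interval -3.99% to 5.88%). GCLM (ENSG00000023909, chromosome 1, 93885199 to 93909456) measured 19.5, 21.6 and 20.1 CPM under PEG and HS, against 20.9, 21.1 and 21.6 CPM in the E8 control. Its media overlapped too (log2 change -0.059 with SE 0.055, edgeR adjusted p = 0.487, 95% interval -11.4% to 4.13%). The ratio of GCLC to GCLM counts was 3.22 ± 0.176 (SD, n = 3) in PEG and HS and 3.07 ± 0.0150 (SD, n = 3) in E8 control, with overlap between the media (log2 difference 0.069, exact two-sided permutation p = 0.3).

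SRXN1 (ENSG00000271303, chromosome 20, 646615 to 653200) encodes sulfiredoxin, which repairs over-oxidised peroxiredoxins. It measured 27.3, 27.9 and 25.7 CPM under PEG and HS, against 27.6, 27.6 and 26.9 CPM in the E8 control, and the E8 control libraries lay inside the range of the PEG and HS libraries (log2 change -0.020 with SE 0.049, edgeR adjusted p = 0.816, 95% interval -8.21% to 6.03%). SRXN1 has 90.6% of its 31-base words in common with a readthrough locus that is counted as a gene of its own, which had 4 counts in PEG and HS replicate 1 and 0 in the other 5 libraries.

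**Figure D2:**
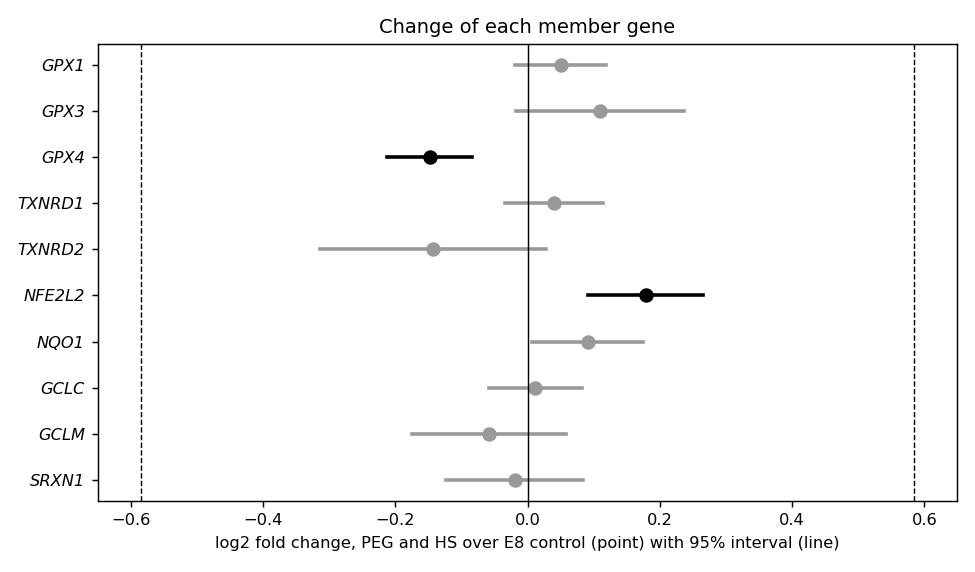
log2 fold change of each member gene, PEG and HS over E8 control (horizontal axis), as a point with its 95% interval from the edgeR fit, black for an adjusted p under 0.05 and grey otherwise, with dashed lines at a 1.5-fold change. All 10 intervals lie inside the dashed lines, and those of GPX4, at -0.15, and NFE2L2, at 0.18, lie clear of 0, as does, by a narrow margin, that of NQO1 at 0.091.

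All 10 of the 95% intervals lay between -19.6% and 20.2%. For the 8 members that were not called, the intervals ran from -19.6% (TXNRD2) to 17.9% (GPX3), and their adjusted p from 0.109 to 0.838 (edgeR), which does not show that the media were equal. Against a 1.5-fold change, 0 of the 10 members were called, and 264 of all genes tested were. Of all genes tested, 62.7% had a smaller absolute log2 fold change than NFE2L2 and 56.8% a smaller one than GPX4. These shares include genes with few counts, whose changes are less precise, and genes of like count were not compared separately.

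Ratios of paired members were taken within each library. The ratio of GPX1 to GPX4 counts was 0.863, 0.886 and 0.870 in PEG and HS and 0.747, 0.761 and 0.774 in E8 control. Every PEG and HS library was above every E8 control library (log2 difference 0.20, exact two-sided permutation p = 0.1, adjusted over the 4 ratios 0.133). The ratio of TXNRD1 to TXNRD2 was 26.5, 27.9 and 30.1 in PEG and HS and 25.9, 23.6 and 25.1 in E8 control, also without overlap (log2 difference 0.18, exact two-sided permutation p = 0.1, adjusted over the 4 ratios 0.133). The ratios were chosen with earlier results of the same libraries known.

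To compare genes with each other, counts were divided by the length of each gene's merged exons and scaled to the same total in each library (TPM). The order was the same in both media from the third place on. In E8 control GPX4 was at 372 ± 8.62 TPM (SD, n = 3) and GPX1 at 363 ± 7.36 TPM, and these neighbours overlapped. In PEG and HS GPX1 was at 384 ± 11.5 TPM and GPX4 at 343 ± 5.80 TPM, and the libraries did not overlap. TXNRD1 followed with 120 ± 6.46 TPM in PEG and HS and 114 ± 2.44 TPM in E8 control, then NQO1 with 76.6 ± 3.57 and 70.5 ± 1.46 TPM. SRXN1 (42.2 ± 1.58 and 41.9 ± 0.496 TPM) and GPX3 (39.8 ± 2.29 and 36.2 ± 2.57 TPM) came next and overlapped in PEG and HS but not in E8 control. GCLC was at 30.2 ± 0.419 and 29.3 ± 0.542 TPM, GCLM at 14.9 ± 0.744 and 15.2 ± 0.301 TPM, NFE2L2 at 11.1 ± 0.301 and 9.62 ± 0.262 TPM, and TXNRD2 at 3.48 ± 0.0933 and 3.76 ± 0.211 TPM. The libraries of all other neighbours in the order did not overlap. With the longest annotated transcript as the length in place of merged exons, 7 of the 10 genes took another place over the 6 libraries. GPX4 was then ahead of GPX1, SRXN1 came behind both GPX3 and GCLC, and NFE2L2 passed GCLM, so the order rests on the length used.

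Human cells have 25 selenoprotein genes, and the 5 members among them made up 44.6% to 45.4% of the summed selenoprotein level. The summed level was 1943, 1990 and 1985 TPM in PEG and HS and 1963, 2004 and 1957 TPM in E8 control, and the media overlapped. After GPX1 and GPX4 the most abundant were SELENON, SELENOH, SELENOW, SELENOF and SEPHS2, all with a mean above that of TXNRD1 in both media. GPX6, a peroxidase of the olfactory epithelium, had no count in any library (0 counts, which allows up to 3 for counting error), and GPX2, the peroxidase of gut epithelium, was at or under 1.14 TPM in each library.

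**Figure D3:**
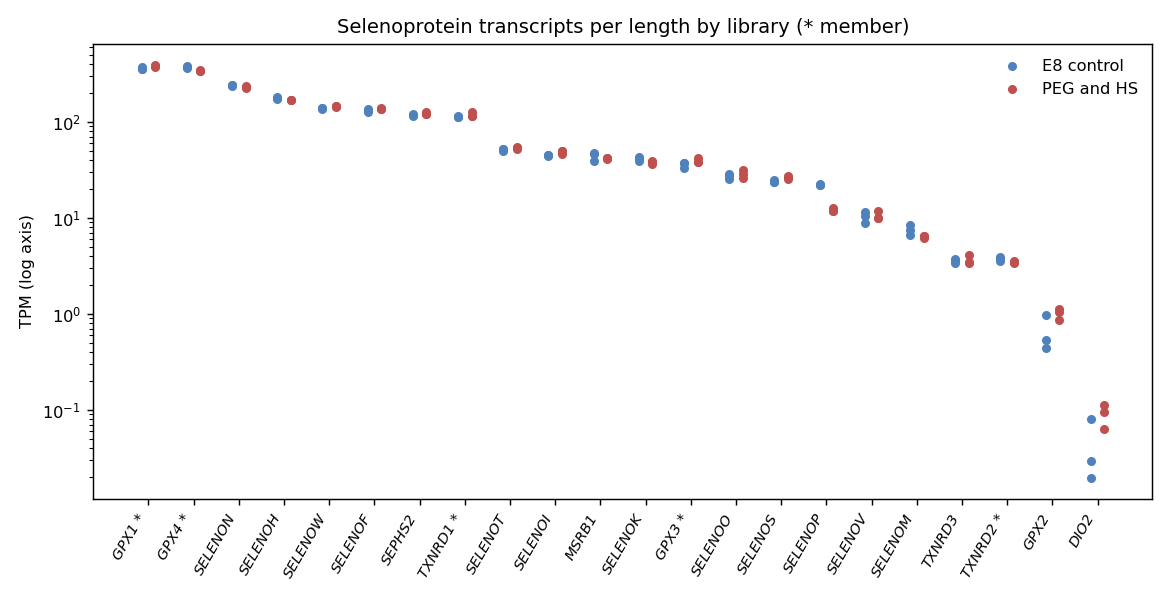
TPM (vertical log axis) of the selenoprotein genes in each of the 3 E8 control (blue) and 3 PEG and HS (red) libraries, ordered by the mean over all libraries, with members marked by an asterisk and genes with a count of 0 in any library left out. SELENOP is the gene whose media are most clearly apart, at 12.1 and 22.3 TPM.

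Of the 20 other selenoproteins, 19 were tested, and 3 were called, all lower in PEG and HS (15.8%, against 25.3% of all genes tested; median log2 fold change 0.031). SELENOP, the secreted protein that carries selenium between tissues, fell most. Its level was 16.5, 16.4 and 17.4 CPM under PEG and HS, against 31.3, 31.4 and 32.3 CPM in the E8 control. Replicates lay close together and the media far apart (log2 change -0.91 with SE 0.050, edgeR adjusted p = 2.60e-09). SELENOP is also the selenoprotein with the most selenocysteines, with 10 in-frame TGA codons in its transcript, of which the first, at codon 59 of 381 (chromosome 5, 42808177 to 42808179, minus strand), is shown with its flanking codons.
SELENOP: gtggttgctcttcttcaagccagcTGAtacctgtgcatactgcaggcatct
SELENOK, a protein of the endoplasmic reticulum, averaged 19.8 ± 0.682 CPM (SD, n = 3) under PEG and HS, against 22.1 ± 0.842 CPM (SD, n = 3) in the E8 control (log2 change -0.16 with SE 0.054, edgeR adjusted p = 0.0455). SELENOK lost its call in DESeq2 (adjusted p = 0.125), without each of 4 of the 6 libraries and with library size alone (adjusted p = 0.0589). SELENON, another protein of that membrane, was called at a similar margin (log2 change -0.083 with SE 0.029, edgeR adjusted p = 0.0479). Without PEG and HS replicate 1 or without PEG and HS replicate 3, the count fell from 3 to 1, and SELENOP was then the gene left.

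Of 9 genes listed around selenocysteine synthesis, insertion and selenium uptake, SEPHS1 among them, 2 were called, both higher (22.2%, against 25.3% of all genes, median log2 fold change 0.039). SEPHS1, a relative of selenophosphate synthetase that does not itself make selenophosphate, rose from 962, 952 and 952 CPM in E8 control to 1281, 1310 and 1295 CPM in PEG and HS (log2 change 0.44 with SE 0.023, edgeR adjusted p = 1.67e-09). SEPHS1 has 16.9% of its 31-base words in common with other genes, pseudogenes of its own included. LRP8, a receptor for SELENOP and for reelin, measured 97.2, 99.4 and 88.6 CPM under PEG and HS, against 81.4, 77.6 and 80.98 CPM in the E8 control, without overlap (log2 change 0.25 with SE 0.041, edgeR adjusted p = 0.000379). SEPHS2, SEPSECS, PSTK, SECISBP2, EEFSEC, TRNAU1AP and SCLY, which carry out synthesis, insertion and recycling, were not called.

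**Figure D4:**
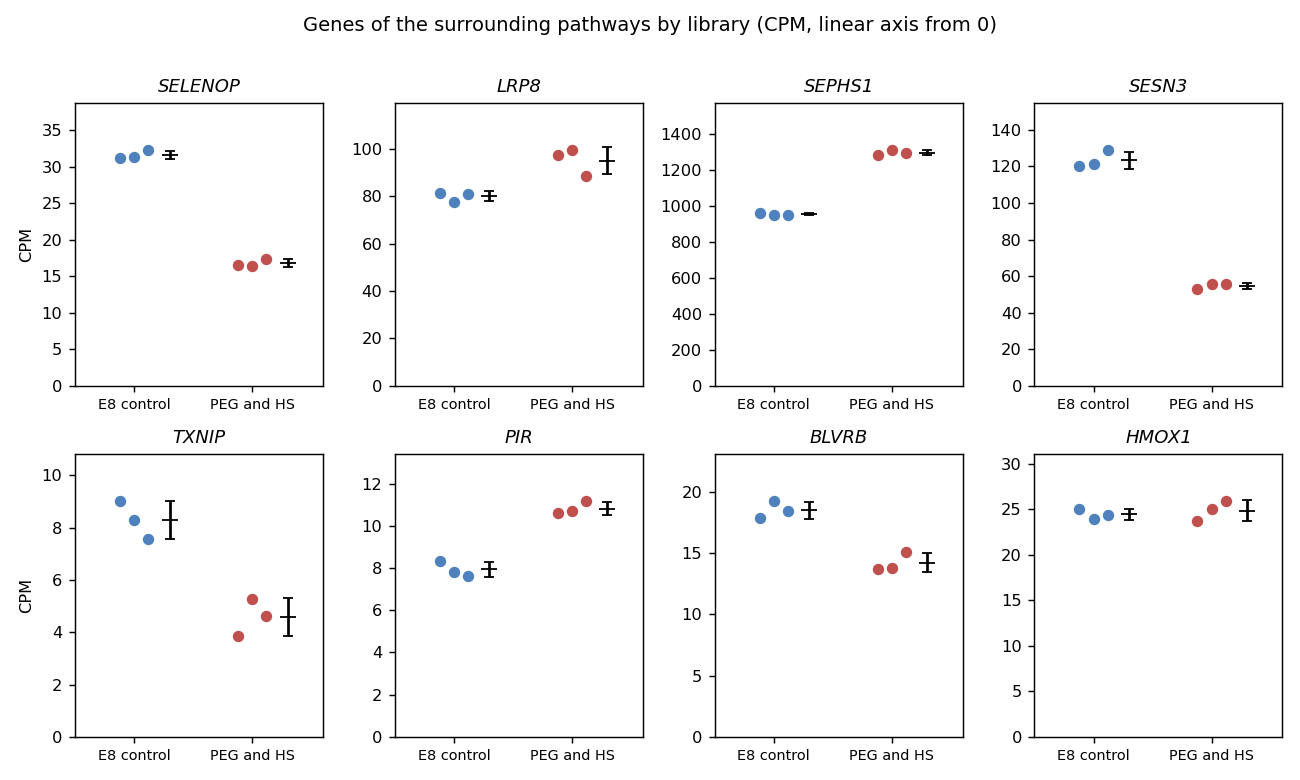
CPM (vertical axis from 0) in each library of 8 genes around the members, drawn as for the members, with E8 control in blue and PEG and HS in red and the mean and SD in black. SELENOP, SESN3, TXNIP and BLVRB are lower in every PEG and HS library, LRP8, SEPHS1 and PIR are higher, and HMOX1 overlaps.

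Among 25 other targets of NRF2, 24 were tested and 10 were called, of which 7 rose and 3 fell under PEG and HS (41.7%, against 25.3% of all genes tested; median log2 fold change 0.053). The list was written with results of these libraries known and its share was not tested against other lists. The balance of the calls depended on a single library: without PEG and HS replicate 3 they were 4 higher and 5 lower. With any other library left out more were higher than lower, such as 4 against 3 without E8 control replicate 1. HMOX1, heme oxygenase and a strongly inducible target, measured 23.7, 25.02 and 25.9 CPM under PEG and HS, against 25.1, 23.9 and 24.4 CPM in the E8 control (log2 change 0.025 with SE 0.051, edgeR adjusted p = 0.774). SLC7A11, the cystine importer that feeds glutathione synthesis, measured 63.1, 61.7 and 62.0 CPM under PEG and HS, against 63.8, 52.1 and 63.6 CPM in the E8 control. Its E8 control replicate 2 stood below the other 5 libraries, and SLC7A11 was not called (log2 change 0.059 with SE 0.059, edgeR adjusted p = 0.524). GSR, glutathione reductase, was not called either (log2 change 0.064 with SE 0.039, edgeR adjusted p = 0.269). The largest rises were in AKR1C3, an aldo-keto reductase (2.30 ± 0.382 CPM under PEG and HS, 1.504 ± 0.297 CPM in the E8 control, SD, n = 3 each, log2 change 0.60 with SE 0.20, edgeR adjusted p = 0.0384), and PIR, pirin (10.8 ± 0.301 and 7.94 ± 0.360 CPM, log2 change 0.45 with SE 0.072, edgeR adjusted p = 0.000243). AKR1C3 lost its call in DESeq2 (adjusted p = 0.0735) and without each of 4 of the 6 libraries. The others called higher were IDH1, TKT, EPHX1, UGDH and TXN, with log2 fold changes of 0.11 to 0.20. The genes called lower were BLVRB, biliverdin reductase B (14.2 ± 0.788 and 18.5 ± 0.691 CPM, log2 change -0.38 with SE 0.062, edgeR adjusted p = 0.000304), FTL, ferritin light chain (log2 change -0.15 with SE 0.035, edgeR adjusted p = 0.00466), and SQSTM1, the autophagy adapter p62 (log2 change -0.15 with SE 0.030, edgeR adjusted p = 0.00179). FTL has 33.5% of its words in common with other genes, chiefly with the pseudogene FTLP3.

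Of 28 genes of glutathione synthesis and use, 5 were called, of which 3 rose and 2 fell (17.9%, against 25.3% of all genes; median log2 fold change -0.044). CHAC2, which degrades glutathione, averaged 9.50 ± 0.394 CPM under PEG and HS, against 7.56 ± 0.534 CPM in the E8 control (log2 change 0.33 with SE 0.079, edgeR adjusted p = 0.0066). GLRX2, a mitochondrial glutaredoxin, averaged 10.4 ± 0.936 and 8.43 ± 0.664 CPM (log2 change 0.30 with SE 0.086, edgeR adjusted p = 0.0185). GLRX2 lost its call without each of 3 of the 6 libraries and with the GC and length correction (adjusted p = 0.0591). The third was MGST1, a microsomal transferase (log2 change 0.13 with SE 0.027, edgeR adjusted p = 0.0027). GSTZ1, which acts in tyrosine breakdown, was lower (20.9 ± 1.246 and 26.01 ± 1.13 CPM, log2 change -0.31 with SE 0.057, edgeR adjusted p = 0.000879), as was GSTP1, a cytosolic transferase (571 ± 4.76 and 615 ± 10.9 CPM, log2 change -0.11 with SE 0.025, edgeR adjusted p = 0.00515).

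A list of 16 genes held thioredoxins, peroxiredoxins and other antioxidant enzymes, and with them the thioredoxin inhibitor TXNIP and the sestrins. Of these, 15 were tested and 5 were called, of which 1 rose and 4 fell, TXNIP among the 4 (33.3%, against 25.3% of all genes; median log2 fold change -0.021). SOD2 was not analysed here. SESN3, a sestrin that restrains mTORC1 and acts in antioxidant defence, had the largest change of all listed redox genes that were called. It measured 52.8, 55.6 and 55.4 CPM under PEG and HS, against 120, 121 and 129 CPM in the E8 control (log2 change -1.18 with SE 0.037, edgeR adjusted p = 4.67e-12). TXNIP, which binds and inhibits thioredoxin, measured 3.86, 5.27 and 4.61 CPM under PEG and HS, against 9.01, 8.28 and 7.57 CPM in the E8 control, again without overlap (log2 change -0.86 with SE 0.11, edgeR adjusted p = 3.86e-05). TXN, thioredoxin itself, was higher, at 80.8, 78.8 and 83.7 CPM against 74.4, 76.5 and 74.3 CPM (log2 change 0.11 with SE 0.034, edgeR adjusted p = 0.0224), and lost its call without each of 4 of the 6 libraries and with the GC and length correction (adjusted p = 0.199). SOD3, the extracellular superoxide dismutase (log2 change -0.66 with SE 0.16, edgeR adjusted p = 0.00601), and PRDX2 (log2 change -0.12 with SE 0.032, edgeR adjusted p = 0.0125) were lower, while CAT and SOD1 were not called. Without PEG and HS replicate 1 the count fell from 5 to 3.

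**Figure D5:**
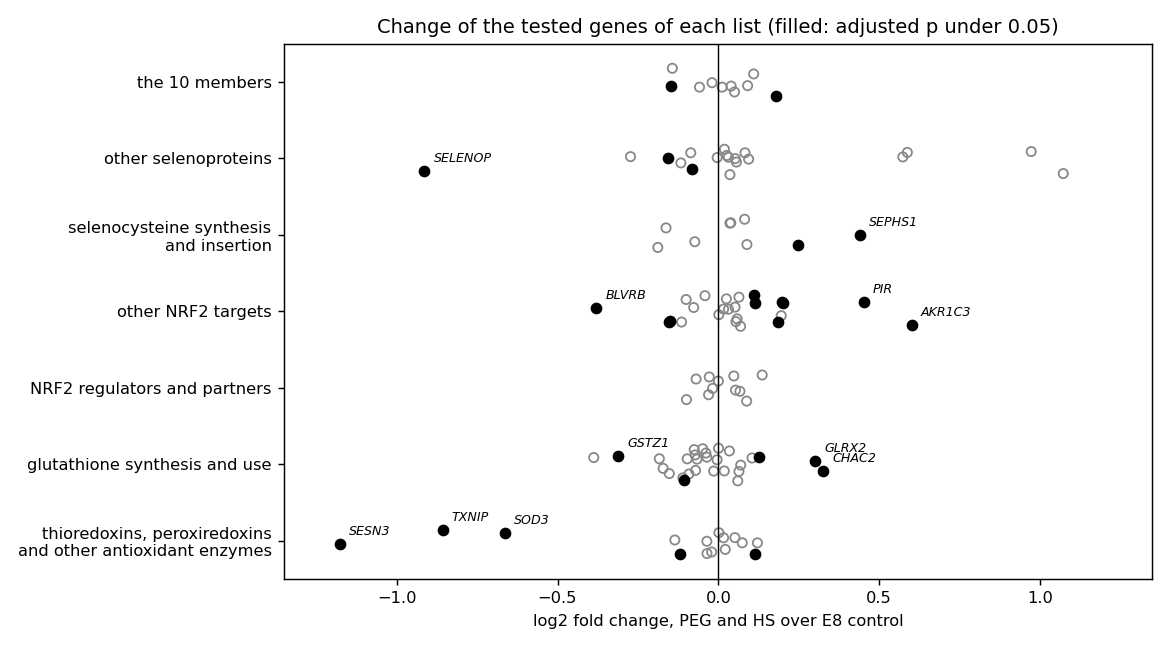
log2 fold change, PEG and HS over E8 control (horizontal axis), of every tested gene of the 10 members and of each of the 6 lists (rows), filled for an adjusted p under 0.05 in edgeR and open otherwise. The members lie between -0.15 and 0.18, while single genes of other lists, such as SESN3 at -1.18 and SELENOP at -0.91, lie farther out.

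The labelled cell type was checked against markers. The 11 pluripotency markers with a row summed to 10605 to 10794 CPM under PEG and HS and 10677 to 10841 CPM in the E8 control, and no marker of any list was at 0 in all libraries. These sums hid opposite changes, since 9 of the 11 markers were called (81.8%, against 25.3% of all genes tested), 5 higher and 4 lower. Among them NANOG was 46.6% and POU5F1 17.5% higher under PEG and HS, and SOX2 changed by -33.6% and PODXL by -24.9%. The sums of all 4 lineage lists were small beside this but separated the media. Under 1 CPM in every library were 3 of the neuroectoderm, 5 of the mesoderm and primitive streak and 5 of the endoderm markers. The same held for 6 of the trophectoderm and amnion markers. HAND1, at no more than 0.222 CPM in any library, was called lower and is counted for both mesoderm and trophectoderm. The 9 neuroectoderm markers summed to 33.0 to 36.8 CPM under PEG and HS and 61.4 to 65.1 CPM in the E8 control (5 called lower, 1 higher), the 9 trophectoderm and amnion markers to 5.60 to 5.97 and 15.3 to 16.5 CPM (4 lower), the 8 endoderm markers to 4.15 to 4.79 and 5.74 to 6.34 CPM (none called by edgeR, 2 with an unadjusted p under 0.05), and the 8 mesoderm and primitive streak markers to 63.9 to 67.2 and 57.9 to 61.8 CPM (2 lower, 1 higher). Single genes had a large part in the sums of all 4 lineage lists. This was seen when the marker with the most counts in each list was left out, a step added after the values were seen. Without KDR the other 7 mesoderm and primitive streak markers summed lower under PEG and HS, at 5.76 to 5.90 against 6.31 to 7.48 CPM. These markers did not all fall. TBX6 and HAND1 were called lower and TBXT and EOMES had lower means, while MIXL1, MESP1 and MESP2 had higher means without a call. Without LHX5 the sums of the other 8 neuroectoderm markers were closer, at 28.3 to 30.8 against 32.6 to 34.5 CPM. Opposite changes lay within them. SOX1, SIX3, PAX6 and HES5 were each called lower, and SIX6 was called higher, with means of 13.6 CPM under PEG and HS and 7.55 CPM in the E8 control. DCX, at means of 9.04 and 8.60 CPM, was not called. Without KRT7 the other 8 trophectoderm and amnion markers summed to 1.63 to 2.37 against 8.53 to 9.36 CPM. Much of the rest was TFAP2A, called lower, with means of 0.603 CPM under PEG and HS and 6.00 CPM in the E8 control. Without FOXA2 the other 7 endoderm markers summed to 2.11 to 2.90 against 3.34 to 3.52 CPM. The part of these cell types in the changes of NFE2L2, GPX4, SELENOP, SESN3 and the other genes was not tested. In bulk samples fewer cells of a type and less RNA per cell cannot be told apart.

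The RefSeq promoter windows of the members (GRCh38.p14, 250 bases before to 50 after each start) were searched for the core of the antioxidant response element, TGACNNNGC, on both strands, because NRF2 acts through it. All 10 genes had a window, 16 in all. The motif occurred in 3 of the 16 windows, which belong to TXNRD1 and GCLM, and in 13.3% of the 35116 windows of all genes. The matches are shown in the direction of the gene with the motif in capitals, on its forward strand in the first sequence and on its reverse strand in the others.
TXNRD1, chr12:104215670-104215698, plus strand: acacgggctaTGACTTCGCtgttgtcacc
TXNRD1, chr12:104215761-104215789, plus strand: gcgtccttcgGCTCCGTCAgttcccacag
TXNRD1, chr12:104286920-104286948, plus strand: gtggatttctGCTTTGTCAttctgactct
GCLM, chr1:93909446-93909474, minus strand: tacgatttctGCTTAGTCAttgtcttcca
The matches of TXNRD1 begin 99 and 8 bases before one start and 102 bases before another, and that of GCLM begins 34 bases before its start. Neither gene was called, with log2 fold changes of 0.040 for TXNRD1 and -0.059 for GCLM. The windows of the other 8 members, NQO1, GCLC and SRXN1 among them, do not hold these letters, which says nothing of elements farther away.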

How the data were processed

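The authors deposited, for each library, unnormalized counts of reads by gene. Per the methods and the processing notes, reads were trimmed with Trim Galore 0.6.7 and mapped to GRCh38 with STAR 2.6.1 in an nf-core pipeline. The counting tool, its strand setting and its annotation are not given in the sources used here. Of 19977 identifiers, 19916 matched GENCODE 44. The treatment given for each library set its group, although the labels' treatment text describes PEG and heparin for all 6.

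Genes with at least 10 counts in total were normalized with TMM and tested with edgeR 4.0.16 in R 4.3.3 (glmQLFit, glmQLFTest, no covariate). SE is |log2 change| divided by √F. The scripts were tested on simulated data. Replicates were not alike within sampling noise (chi-square over degrees of freedom 2.58 to 3.52). The members, lists and ratios were chosen with earlier results of these data known. Named are the members, HMOX1, SLC7A11, KEAP1, TXN, GSR, TXNIP, and per list up to 2 called genes in each direction with the largest change, no overlap and, in every library of the higher medium, 1 CPM or more. Other genes were added after their values were seen. Shared sequence is the percent of a gene's 31-base words found in transcripts of other genes. Alternatives were DESeq2 1.42.0, limma-voom (limma 3.58.1), other normalizations and filters, a GC and length correction, the replicate number as a block, a 1.5-fold threshold and each library left out.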

Additional observations from a re-analysis of the deposited data

How the results depend on the processing

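The count of members called was 2 in 13 of the 16 other settings, 3 in 2 of them (GC and length correction, which added GPX1, and PEG and HS replicate 2 left out, which added NQO1) and 0 against a 1.5-fold change. Against that change the calls were 264 over all genes, 1 among the other selenoproteins, 0 for selenocysteine synthesis and insertion, 0 for the other NRF2 targets, 0 for glutathione synthesis and use and 1 for the thioredoxins, peroxiredoxins and other antioxidant enzymes, since that test asks for larger changes. Of these 264 genes 30 were higher and 234 lower. The correction for GC content and length called 2 of the NRF2 regulators and partners, against 0. With each library left out in turn, the calls were 3114 to 3674 over all genes, 2 to 3 among members, 1 to 4 among the other selenoproteins, 7 to 9 among the other NRF2 targets (4 to 6 higher, 3 to 5 lower) and 3 to 5 among the thioredoxins, peroxiredoxins and other antioxidant enzymes. Values that changed sign were all uncalled and near 0, and the cause was not tested: without PEG and HS replicate 3, TXNRD1 was at -0.0026 (log2, highest with any library left out 0.062), SRXN1 at 0.014 (lowest -0.044) and HMOX1 at -0.0063 (highest 0.060). Without E8 control replicate 2, SLC7A11 was at -0.035 (highest 0.11) and KEAP1 at 0.0068 (lowest -0.050), and after the GC and length correction GCLC was at -0.013 and KEAP1 at 0.010. Of the 464 combinations of 29 named genes and settings, 419 kept direction and side of the threshold. Whether the numbers of the replicates pair the libraries is not settled. The same-numbered libraries' deviations correlated weakly, at 0.0736, 0.144 and 0.0741. Those of other numbers correlated at -0.106 to 0.0347, and every library correlated best with its own number. With the replicate block, 4444 genes and 2 members were called, and of the named genes SELENOK alone lost its call (adjusted p = 0.0602). Depth limits TXNRD2 most, with 1455 counts in all.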
